A study of Homo sapiens with 2 samples.

Results

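Prostanoids are short-lived lipid signals that cells make from arachidonic acid, a fatty acid freed from membranes by phospholipases. The cyclooxygenases PTGS1 and PTGS2 turn it into prostaglandin H2, and terminal synthases such as PTGES, the inducible prostaglandin E synthase, turn that into the final product. Prostaglandin E2 acts on the receptors PTGER1 to PTGER4, thromboxane A2 acts on TBXA2R, the carrier SLCO2A1 brings prostaglandins back into the cell, and the dehydrogenase HPGD inactivates them there. In platelets PTGS1 and thromboxane synthase make thromboxane A2, an activator of neighbouring platelets, and in epithelia prostaglandin E2 is known for its part in growth and inflammation. The 10 genes named here were chosen by symbol, as 2 cyclooxygenases, 1 synthase, 1 carrier, 1 degrading enzyme and 5 receptors, and all 10 are among the 21382 genes of the deposited table.

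RNA-Seq had been performed on 2 established human prostate cancer cell lines, untreated, with 1 library per line. MDA PCa 2b, a line from a bone metastasis, was grown in serum-containing F-12 medium with cholera toxin, mouse epidermal growth factor, phosphoethanolamine, hydrocortisone, selenite and insulin. RC77 T/E, an immortalized line from a prostate tumor, was kept without serum, in a medium made for keratinocytes to which extract of bovine pituitary and epidermal growth factor (EGF) had been added. Each line stands for 1 tumor, and line and medium cannot be told apart. The values are transcripts per 1000000 (TPM), which set the reads of a gene against its length and the total of the library. No value has a replicate error, no test between the lines was possible, and the depth behind each value is unknown because TPM keeps no record of it. In these bulk samples, fewer cells with a transcript and less transcript per cell cannot be told apart.

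Values of 1 TPM or more had lost their decimal mark in the deposited table, and the mark was put back with the help of the deposited mean and standard error. This gave a single value for 9 of the 10 genes. PTGES was the exception, since its values fit with the mark in either of 2 places that differ by a factor of 10, and both are given. Of the lineage markers, 4 of 6 luminal genes were at least 2-fold higher in MDA PCa 2b, where KLK3 was at 5323 TPM and in RC77 T/E is listed at 0, while KRT8 and KRT18 differed by less. All 5 basal markers were higher in RC77 T/E by 2-fold or more, beside 11.3% of all genes. KRT5 was at 4027 TPM there against 0.00435 TPM in MDA PCa 2b. The part of lineage in the differences given here was not tested.

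Differences of 2-fold or more lay at several steps of the pathway. Both cyclooxygenase genes, PTGES and PTGER1 were higher in RC77 T/E, whereas the carrier SLCO2A1 and the degrading enzyme HPGD were found at more than 20 TPM in MDA PCa 2b and under 1 TPM in RC77 T/E. A level of 1 TPM in a library, a threshold chosen here, was reached by 4 of the 10 genes in MDA PCa 2b (SLCO2A1, HPGD, PTGES and PTGER4), beside 49.6% of all genes of the table. In RC77 T/E it was 5 of the 10 (PTGES, PTGS2, PTGS1, PTGER4 and PTGER1), beside 52.8% of all genes. PTGES and PTGER4 reached it in both, beside 9767 of the 21382 genes of the table. PTGER2, PTGER3 and TBXA2R reached it in neither, beside 9256 of the 21382.

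The lines were compared by a log2 ratio, RC77 T/E over MDA PCa 2b, for which 1 TPM was first added to each value so that values near 0 do not give large ratios. This scale understates the change of low genes. On it, 4 of the 10 genes (PTGS2, PTGS1, PTGES and PTGER1) were higher in RC77 T/E by 2-fold or more, beside 11.3% of all genes. HPGD and SLCO2A1, 2 of the 10, were at least 2-fold higher in MDA PCa 2b, beside 11.4% of all genes. The study set its minimum of 1 TPM on the mean over samples, and 6 of the 10 genes averaged 1 TPM or more over both lines, of which 3 and 2 passed the 2-fold mark in these directions. Of all 11624 genes with such an average, 19.4% were higher by 2-fold or more in RC77 T/E, and 20.0% were so in MDA PCa 2b. Over the 10 genes the log2 ratio had a median of 0.44, against 0 over all genes of the table and -0.15 over those averaging 1 TPM or more.

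**Figure D1:**
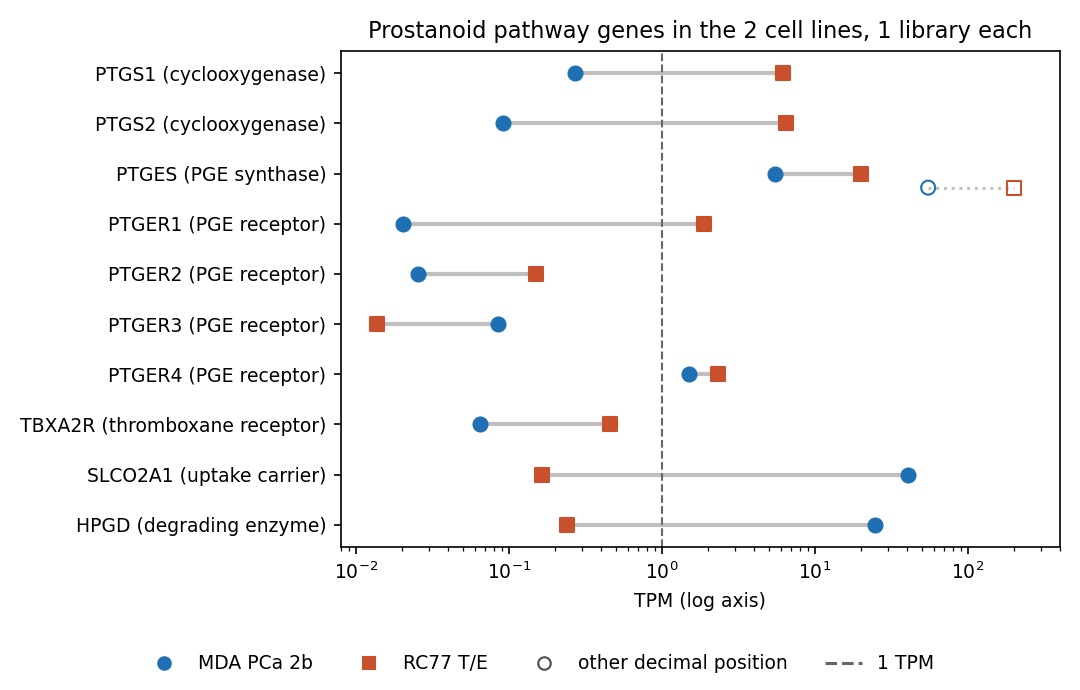
TPM of the 10 prostanoid pathway genes on a log axis, with a blue circle for MDA PCa 2b and a red square for RC77 T/E (1 library each, no error bars), a grey line joining both values and a dashed line at 1 TPM. Open symbols give PTGES at the other place of its decimal mark. SLCO2A1 and HPGD lie at 40.9 and 24.6 TPM in MDA PCa 2b and under 1 TPM in RC77 T/E, whereas PTGS1, PTGS2 and PTGER1 cross the line the other way.

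PTGS2, the cyclooxygenase that growth factors and inflammatory signals induce, was at 6.48 TPM in RC77 T/E against 0.0917 TPM in MDA PCa 2b. The quotient of these TPM values was 70.7, and the log2 ratio with 1 TPM added was 2.78. PTGS1, the form that many tissues express constitutively, was at 6.23 TPM in RC77 T/E against 0.269 TPM in MDA PCa 2b, which is 23.2-fold higher with a log2 ratio of 2.51. Both cyclooxygenases were thus under 1 TPM in MDA PCa 2b and above 6 TPM in RC77 T/E. Together they came to 12.7 TPM in RC77 T/E against 0.361 TPM in MDA PCa 2b. Within RC77 T/E the level of PTGS2 was 1.04 times that of PTGS1, and within MDA PCa 2b PTGS1 was 2.93 times as high as PTGS2. Of the 11624 genes averaging 1 TPM or more, 6.13% had a larger log2 ratio than PTGS2 and 7.18% a larger one than PTGS1 with decimal marks that are not fixed at their lowest place, and 7.54% and 8.54% at their highest.

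PTGES was at 5.52 or 55.2 TPM in MDA PCa 2b and at 20.1 or 200.7 TPM in RC77 T/E, depending on the place of the decimal mark. Either place makes it 3.64 times as high in RC77 T/E, with a log2 ratio of 1.69 at the lower and 1.84 at the higher values. In RC77 T/E it was the highest of the 10 genes at both places of the mark. In MDA PCa 2b it was the third highest at the lower value and the highest at the higher one. At the lower values, the level of PTGES was 60.2 times that of PTGS2 in MDA PCa 2b and 3.10 times in RC77 T/E.

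The genes of synthesis are shown with the DNA before their start sites, because all 3 were higher in the same cell line. The sequences are the 250 bases before the RefSeq start on GRCh38.p14, written 5′ to 3′ along the gene, with capitals where a searched motif matches on either strand. Promoter windows were held for 8 of the 10 genes. The motifs were the TATA box (TATAAA), the CCAAT box (CCAAT), the GC box (GGGCGG), the E-box (CACGTG), the half-site of the cyclic AMP response element (CGTCA), the AP-1 site (TGANTCA), a C/EBP-like site (TTNCGCAA) and the half-site of steroid hormone receptors (AGAACA). PTGS2 lies on the minus strand and its window is chr1:186680424-186680673. PTGS1 lies on the plus strand with the window chr9:122370283-122370532, and PTGES on the minus strand with chr9:129753043-129753292. PTGS1 has a second RefSeq start at 122375302, and the start shown had 2 coding GENCODE transcripts beginning within 50 bases against 1 there.
PTGS2: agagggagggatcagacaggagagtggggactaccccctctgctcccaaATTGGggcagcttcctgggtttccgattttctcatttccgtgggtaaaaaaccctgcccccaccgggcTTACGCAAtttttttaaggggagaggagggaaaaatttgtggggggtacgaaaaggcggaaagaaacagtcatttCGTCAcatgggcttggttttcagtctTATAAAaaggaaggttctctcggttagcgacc
PTGS1: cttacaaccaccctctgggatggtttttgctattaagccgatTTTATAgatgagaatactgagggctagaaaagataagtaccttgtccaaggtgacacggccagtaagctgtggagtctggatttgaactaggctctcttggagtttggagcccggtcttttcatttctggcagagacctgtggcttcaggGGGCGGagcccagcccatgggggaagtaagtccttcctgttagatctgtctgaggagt
PTGES: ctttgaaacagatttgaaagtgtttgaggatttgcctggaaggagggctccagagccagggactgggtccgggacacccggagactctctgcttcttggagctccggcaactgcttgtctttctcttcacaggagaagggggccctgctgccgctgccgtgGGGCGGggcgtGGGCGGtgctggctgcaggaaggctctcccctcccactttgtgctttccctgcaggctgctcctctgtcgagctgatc

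In the PTGS2 window, the TATA box began 32 bases and the half-site of the cyclic AMP response element 58 bases before the start. The C/EBP-like site of PTGS2 began 133 bases before the start, and a CCAAT box on the reverse strand 201 bases before it. Of all 35116 RefSeq windows of this length, 10.7% held the TATA box, 21.2% the response element half-site, 0.752% the C/EBP-like site and 32.0% the CCAAT box. The PTGES window held no TATA box and 2 GC boxes, 89 and 78 bases before the start, and 42.6% of all windows held that motif. The PTGS1 window held 1 GC box 58 bases before the start, and a TATA match on the reverse strand 208 bases before it. None of the 3 windows held the E-box in the form CACGTG (6.34% of all windows), the AP-1 site (6.57%) or the hormone receptor half-site (12.4%). Other forms of the E-box were not searched. The windows of PTGS2 and PTGS1 had 50.4% and 49.6% G and C and that of PTGES 61.2%, beside a median of 58.0% over all windows. HPGD, which was higher in MDA PCa 2b, has RefSeq starts at 174522488 and 174522893. The window before 174522488 also included a CCAAT box and a GC box, and the window before 174522893 the response element half-site. Both windows lie inside the deposited span of the gene. They held no TATA box and no C/EBP-like site. These matches describe letters only, and binding was not measured.

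SLCO2A1, the carrier that takes prostaglandins up from outside the cell, was at 40.9 TPM in MDA PCa 2b against 0.166 TPM in RC77 T/E. It was 246.5-fold higher in MDA PCa 2b, and its log2 ratio of -5.17 was the lowest of the 10 genes. HPGD, whose enzyme oxidizes prostaglandins to inactive keto forms, was at 24.6 TPM in MDA PCa 2b against 0.240 TPM in RC77 T/E, which is 102.8-fold higher with a log2 ratio of -4.37. Uptake carrier and degrading enzyme, which act one after the other, were both high in the same line. Of the 11624 genes averaging 1 TPM or more, 80 had a lower log2 ratio than SLCO2A1 and 112 a lower one than HPGD (0.688% and 0.964%) with decimal marks that are not fixed at their lowest place. At their highest place it was 191 and 227 genes (1.64% and 1.95%). Within a library, the level of SLCO2A1 was 1.66 times that of HPGD in MDA PCa 2b and 0.692 times in RC77 T/E.

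The balance of degrading enzyme to cyclooxygenase within a library was opposite in the cell lines. In MDA PCa 2b the level of HPGD was 268.5 times that of PTGS2, whereas PTGS2 was 27.0 times as high as HPGD in RC77 T/E. HPGD was 91.5 times as high as PTGS1 in MDA PCa 2b, whereas PTGS1 was 26.0 times as high as HPGD in RC77 T/E. These are ratios of transcript levels per length, and neither enzyme activity nor prostaglandin was measured.

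**Figure D2:**
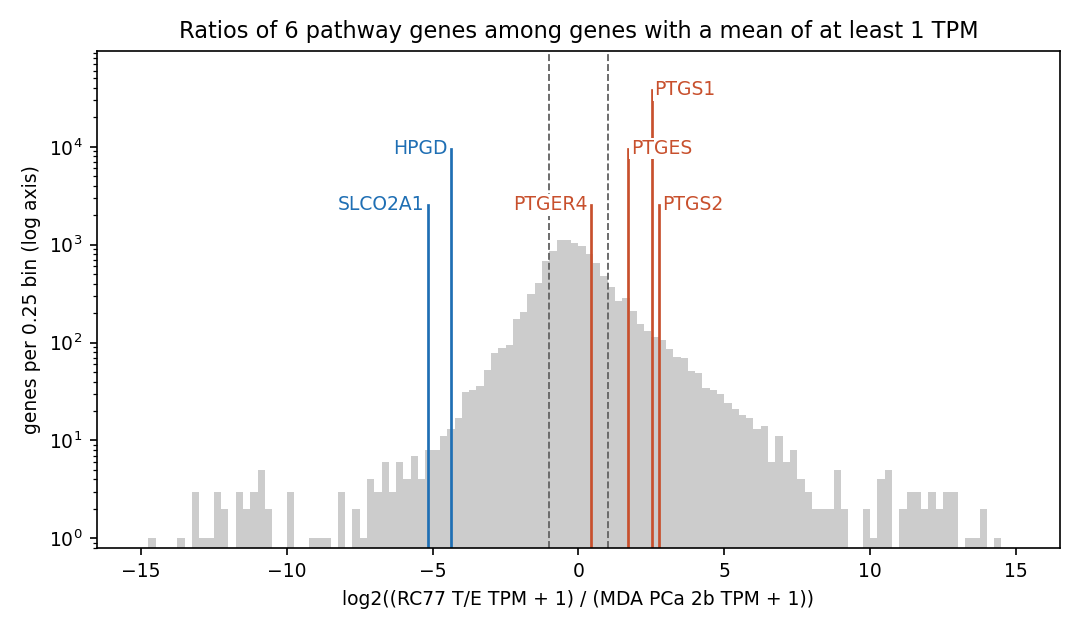
Histogram of log2 ratios, RC77 T/E over MDA PCa 2b with 1 TPM added to each, for the 11624 genes averaging 1 TPM or more (grey, genes per bin on a log axis). Vertical lines mark the 6 prostanoid pathway genes with such an average, and dashed lines a 2-fold difference. SLCO2A1 (-5.17) and HPGD (-4.37) lie in the lower tail, PTGES (1.69), PTGS1 (2.51) and PTGS2 (2.78) above the 2-fold line, and PTGER4 (0.42) inside it.

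Among the receptors, PTGER4, which couples to the stimulation of adenylyl cyclase, was the one that reached 1 TPM in both. It was at 2.34 TPM in RC77 T/E against 1.50 TPM in MDA PCa 2b, a 1.56-fold difference with a log2 ratio of 0.42. The gene lies on chromosome 5 from 40679915 to 40693735 inside TTC33, a gene on the opposite strand. TTC33 was at 3.40 TPM in RC77 T/E against 3.10 TPM in MDA PCa 2b. The libraries were directional, but the sources do not state whether strand was used for the values. The overlap was taken from whole gene spans, and exons were not compared. Whether reads of PTGER4 and TTC33 were separated was not tested.

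PTGER1, the receptor that raises cell calcium, was at 1.89 TPM in RC77 T/E against 0.0204 TPM in MDA PCa 2b. It was 92.9-fold higher in RC77 T/E, with a log2 ratio of 1.50, but its mean over both lines stayed under 1 TPM, at 0.957 TPM. PTGER2, the other receptor that stimulates adenylyl cyclase, was at 0.151 TPM in RC77 T/E against 0.0253 TPM in MDA PCa 2b. PTGER3, which lowers cyclic AMP, was at 0.0849 TPM in MDA PCa 2b against 0.0138 TPM in RC77 T/E. PTGER2 and PTGER3 thus stayed under 1 TPM in both lines, where the unknown depth leaves a ratio without a limit of detection. On the log2 scale PTGER3 differed by -0.098, which turned to 0.055 when ratios were centred on the median of the genes averaging 1 TPM or more. PTGER4 made up 92.0% of the summed TPM of the PGE receptors in MDA PCa 2b, where the sum was 1.63 TPM, and 53.2% in RC77 T/E, where it was 4.40 TPM.

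TBXA2R, the receptor by which thromboxane A2 from platelets acts on other cells, was at 0.456 TPM in RC77 T/E against 0.0646 TPM in MDA PCa 2b. Its log2 ratio was 0.45, and neither line reached 1 TPM. PTGS1 and TBXA2R are also abundant in platelets, so platelet transcripts were examined in the same libraries. All 6 platelet markers were under 1 TPM in both lines, as were 9256 of the 21382 genes of the table. The platelet markers summed to 1.13 TPM in RC77 T/E and 0.410 TPM in MDA PCa 2b. Both lines are listed at 0 for PF4 and GP9. All 3 endothelial markers were under 1 TPM in both lines. Of 4 leukocyte markers, CD14 was at 4.92 TPM in RC77 T/E, and of 3 fibroblast markers COL1A1 was at 8.24 TPM there. The other markers of both lists were under 1 TPM in both lines, with PTPRC, the defining leukocyte gene, at 0.0113 TPM in MDA PCa 2b and listed at 0 in RC77 T/E. The leukocyte list summed to 4.93 TPM and the fibroblast list to 9.12 TPM in RC77 T/E, against 0.586 and 1.19 TPM in MDA PCa 2b, and their part in the differences was not tested.

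The order of the 10 levels from high to low was SLCO2A1, HPGD, PTGES, PTGER4, PTGS1, PTGS2, PTGER3, TBXA2R, PTGER2 and PTGER1 in MDA PCa 2b, with PTGES at its lower value. In RC77 T/E it was PTGES, PTGS2, PTGS1, PTGER4, PTGER1, TBXA2R, HPGD, SLCO2A1, PTGER2 and PTGER3. With 1 library per line no spread is known, so neighbours in these orders cannot be said to differ. The 2 highest genes of MDA PCa 2b at the lower value of PTGES held the seventh and the eighth place in RC77 T/E.

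On GRCh38 the deposited table places PTGS2 on chromosome 1 from 186671791 to 186680922 and PTGS1 on chromosome 9 from 122370530 to 122395703. PTGES lies on chromosome 9 from 129738331 to 129753042, HPGD on chromosome 4 from 174490175 to 174523154, and SLCO2A1 on chromosome 3 from 133932701 to 134052184. PTGER1 (14472466 to 14475354) and TBXA2R (3594507 to 3606875) are on chromosome 19, PTGER2 is on chromosome 14 from 52314305 to 52328598, and PTGER3 on chromosome 1 from 70852353 to 71047816. In GENCODE release 29, PTGER4 was the only one of the 10 to overlap another protein-coding gene. PTGS1 and PTGER3 overlap short or antisense noncoding genes.

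The wider pathway was counted in the same way, and of the 52 genes listed beside the 10, 50 were found in the table. Of these 50, 30 reached 1 TPM in MDA PCa 2b and 29 did so in RC77 T/E, beside 49.6% and 52.8% of all genes. A difference of 2-fold or more was found towards RC77 T/E in 10 of the 50 and towards MDA PCa 2b in 13, beside 11.3% and 11.4% of all genes and 19.4% and 20.0% of those averaging 1 TPM or more. The median log2 ratio was 0.022, beside 0 over all genes of the table.

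Of 12 genes of lipases that can free arachidonic acid, 2 were higher by 2-fold or more in RC77 T/E and 6 were so in MDA PCa 2b. The shares were 11.3% and 11.4% over all genes and 19.4% and 20.0% over those averaging 1 TPM or more. PLA2G4A, the cytosolic phospholipase that supplies cyclooxygenases, was at 5.04 TPM in RC77 T/E against 0.0254 TPM in MDA PCa 2b, the same direction as PTGS1 and PTGS2. Its relatives PLA2G4F and PLA2G4C were the other way, at 18.6 against 0.482 TPM and at 7.70 against 0.503 TPM. The secreted phospholipases PLA2G2A and PLA2G5 were at no less than 9.46 and 5.75 TPM in MDA PCa 2b, where their decimal mark is not fixed, and are listed at 0 in RC77 T/E. FAAH, which splits fatty acid amides, was 54.3 times and PLA2G6 2.46 times as high in MDA PCa 2b. MGLL, the monoglyceride lipase, was 3.98-fold higher in RC77 T/E.

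Of 9 other terminal synthases in the table, 2 were at least 2-fold higher in each direction, beside 11.3% and 11.4% of all genes and, among those averaging 1 TPM or more, 19.4% and 20.0%. TBXAS1, thromboxane synthase, was at 13.4 TPM in MDA PCa 2b against 0.238 TPM in RC77 T/E, so that the line with the lower cyclooxygenases had the higher thromboxane synthase. AKR1B1 and AKR1C3, reductases that can form prostaglandin F2α, were at 0.0942 and 0.0486 TPM in MDA PCa 2b and at 64.7 and 14.0 TPM in RC77 T/E. AKR1C3 has close copies in the genome, and its value is uncertain because the division of shared reads is not given. Of the other E synthases, PTGES3 was at 170.5 and 175.0 TPM, with MDA PCa 2b given first, and PTGES2 at 66.1 and 24.9 TPM. Prostacyclin synthase, PTGIS, is listed at 0 in both lines, and both D synthases, PTGDS and HPGDS, stayed under 0.1 TPM.

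Of the 4 receptors for other prostanoids, PTGFR, the receptor of prostaglandin F2α, was at 2.82 TPM in MDA PCa 2b against 0.0433 TPM in RC77 T/E. The prostacyclin receptor PTGIR was listed at 0 in MDA PCa 2b and at 0.700 TPM in RC77 T/E, and PTGDR and PTGDR2 stayed under 0.1 TPM. Among 8 genes of export and later breakdown, ABCC4, a pump that carries prostaglandins out of cells, was at 141.2 TPM in MDA PCa 2b against 5.04 TPM in RC77 T/E. A second pump, ABCC1, was 5.77-fold higher in MDA PCa 2b. The carrier SLCO3A1 was at 12.9 TPM in RC77 T/E against 0.00258 TPM in MDA PCa 2b, opposite in direction to SLCO2A1. PTGR1, a reductase of keto-prostaglandins, was at 79.6 and 80.2 TPM, and the other 4 genes of this group (PTGR2, PTGR3, CBR3 and SLCO4A1) differed by less than 2-fold.

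**Figure D3:**
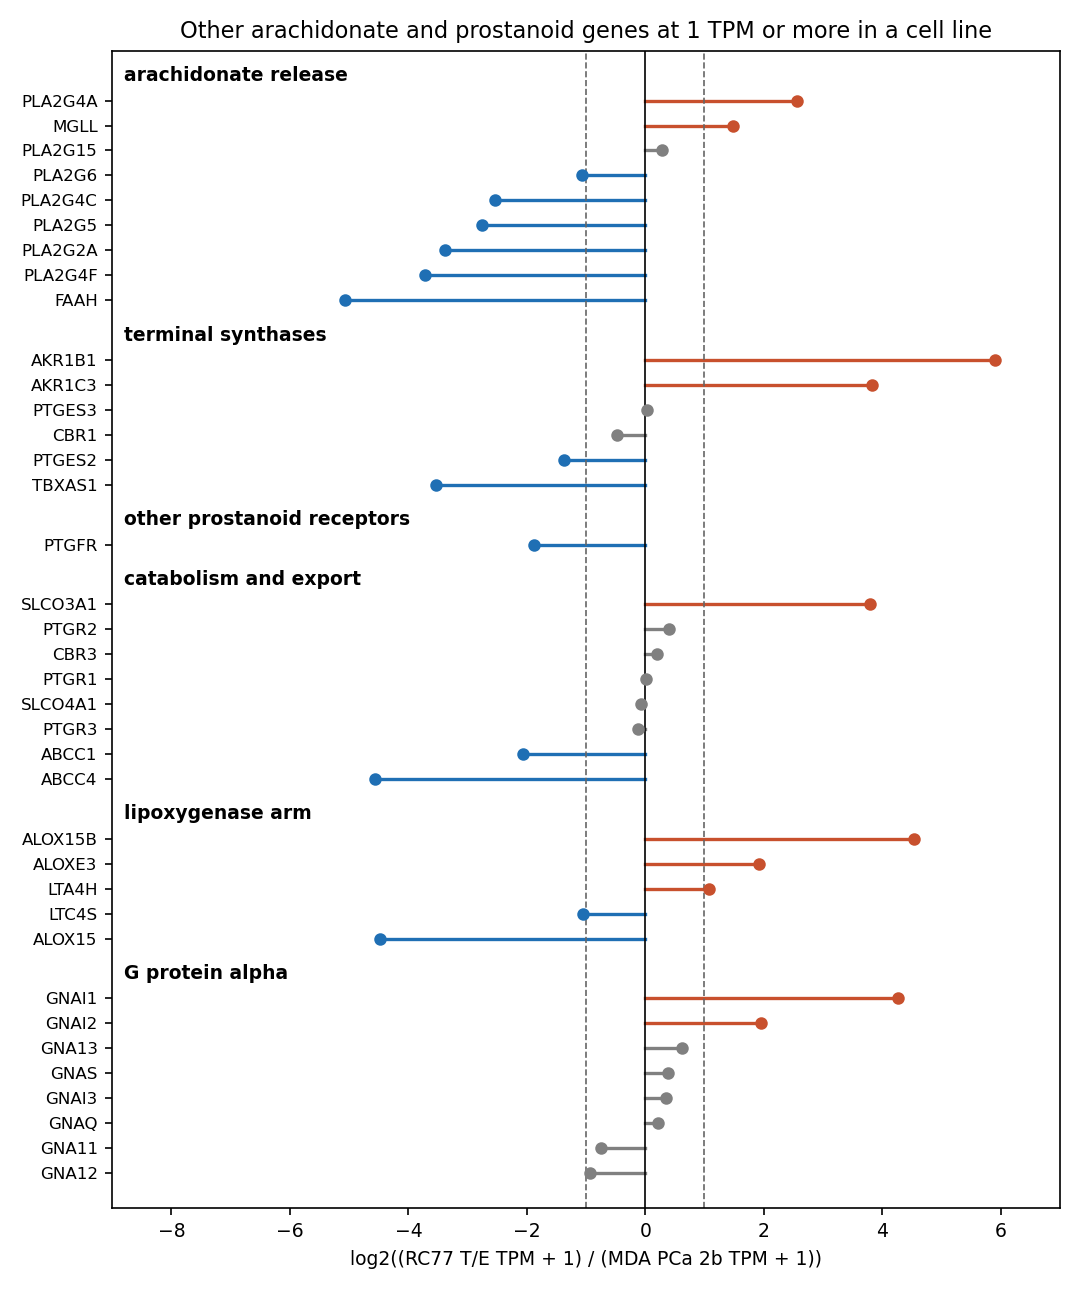
Log2 ratios, RC77 T/E over MDA PCa 2b with 1 TPM added to each, for genes of 6 lists that reached 1 TPM in either line. Red marks a gene higher by 2-fold or more in RC77 T/E, blue one higher so in MDA PCa 2b and grey a smaller difference, with dashed lines at 2-fold and decimal marks that are not fixed at their lowest place. PLA2G4A, AKR1B1 and AKR1C3 point towards RC77 T/E, and TBXAS1, ABCC4 and PTGFR towards MDA PCa 2b.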

How the data were processed

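The data were paired-end, directional RNA-Seq of total RNA, with 1 library for MDA PCa 2b cells and 1 for RC77 T/E cells. The authors deposited TPM values per locus with their mean and standard error. The submitters' processing notes name CASAVA, FastQC 0.11.9, Trimmomatic 0.38, Salmon 1.2.0 and the build GRCh38. The annotation used is not given in the sources used here.

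In the deposited TPM columns, values of 1 or more with at least 3 decimals lack their decimal mark. Each place leaving 1 to 3 digits before the mark was tried, and those giving the deposited mean and standard error were kept. This fixed 16283 of 22791 rows. The lowest place was used elsewhere. The resulting TPM sums were 751125 and 682469, whereas the highest places gave 2416346 and 2140710, above the 1000000 that TPM allows. The 87 rows that repeat a locus were dropped, and loci of 1 symbol were summed.

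No test was made, since each line has 1 library. A difference is described as at least 2-fold on the log2(TPM + 1) scale, and 1 TPM in a library was used as a threshold of expression, whereas the study set it on the mean over samples. Named were the 10 genes and, of the wider lists, the genes at 1 TPM or more with a 2-fold difference while the others named beside them were chosen after their values were seen. Members and lists were chosen with earlier results of these data known. PLA2G4B and PRXL2B were not analysed here, and PTGR3 was matched by its Ensembl identifier. Python 3.11.15 with pandas 2.3.3, numpy 2.4.6 and matplotlib 3.10.9 was used, with strands and overlaps from GENCODE release 29 and promoter windows from RefSeq (GRCh38.p14).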

Additional observations from a re-analysis of the deposited data

How the results depend on the processing

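Of 104 values recomputed under the alternatives, 85 stayed within 1.5 times of the reported value. A threshold of 5 TPM, with PTGES at either place of its mark, left 3 in place of 5 of the 10 genes in RC77 T/E (PTGES, PTGS1 and PTGS2). A fold threshold of 4 left 2 in place of 4 genes higher in RC77 T/E. A pseudocount of 0.1 TPM moved the log2 ratios of PTGS1 to 4.10, PTGS2 to 5.10, PTGER1 to 4.05, PTGER2 to 1.00, PTGER3 to -0.70 and TBXA2R to 1.76, as a small pseudocount must where a value is near 0. With PTGER2 and TBXA2R past the 2-fold mark, it put 6 in place of 4 of the genes higher in RC77 T/E. Centring on the median of -0.15 moved PTGER2 to 0.32 and turned PTGER3 to 0.055. Scaling to the upper quartile, taking the largest locus of a symbol, and the highest places of the decimal mark left every count and ratio of the 10 genes within 1.5 times. Reading the commas as digit grouping, which the deposited means contradict, gave 18.9 for PTGS1, 19.2 for PTGS2, 17.5 for PTGER1, -14.3 for HPGD and -18.4 for SLCO2A1. It reversed PTGES to -1.46, turned PTGER4 to -2.68 and put 4 in place of 2 of the genes at least 2-fold higher in MDA PCa 2b. No paired analysis was possible because there is 1 library per line. The unknown depth limits every value under 1 TPM.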

Other observations

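The lipoxygenases, which turn the same arachidonic acid into other lipid signals, differed between the lines in the genes that reached 1 TPM. ALOX15 was at 21.7 TPM in MDA PCa 2b against 0.0195 TPM in RC77 T/E. ALOX15B, the related enzyme of prostate and skin epithelium, was at 22.7 TPM in RC77 T/E against 0.0227 TPM in MDA PCa 2b. ALOXE3, an epidermal lipoxygenase, was at 4.24 TPM in RC77 T/E against 0.388 TPM in MDA PCa 2b. LTA4H, which makes leukotriene B4, was 2.43-fold higher in RC77 T/E. LTC4S, the leukotriene C4 synthase, was at 2.26 TPM in MDA PCa 2b against 0.579 TPM in RC77 T/E. The leukotriene starter ALOX5 and its partner ALOX5AP stayed under 1 TPM in both lines. Of the 9 genes of this list, 3 were higher by 2-fold or more in RC77 T/E, and 2 were so in MDA PCa 2b, beside 11.3% and 11.4% of all genes and 19.4% and 20.0% of those averaging 1 TPM or more.

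Of the 8 G protein alpha subunits through which prostanoid receptors act, 2 were higher by 2-fold or more in RC77 T/E, and 0 were so in MDA PCa 2b. The shares were 11.3% and 11.4% over all genes, and 19.4% and 20.0% over those averaging 1 TPM or more. GNAI1, an inhibitor of adenylyl cyclase, was at 19.3 TPM in RC77 T/E against 0.0579 TPM in MDA PCa 2b, and its relative GNAI2 was 5.00-fold higher in RC77 T/E. GNAS, which stimulates adenylyl cyclase, was at 516.6 TPM in RC77 T/E against 395.6 TPM in MDA PCa 2b. GNAQ, which raises calcium, was at 13.6 TPM in RC77 T/E against 11.6 TPM in MDA PCa 2b. GNA12 was 2.34-fold higher in MDA PCa 2b, with a log2 ratio of -0.93 at the lowest place of its decimal mark and -1.19 at the highest. No replicate checks any of these differences.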
